A study of Mus musculus with 12 samples.

Results

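The genes described here are 39 genes of the endoplasmic reticulum (ER) and the early secretory pathway, picked by name out of 55487 genes with a row in the count table. They cover 10 chaperones and co-chaperones of the ER lumen, 6 disulfide isomerases and CRELD proteins, 7 collagen chaperones and prolyl isomerases, 3 genes of unfolded protein sensing, 7 genes of ER-associated degradation and 6 genes of translocation and export. The rule that picked them names the genes and uses no measured value, but the names were put together with earlier results of these data known. The cells were C2C12, 1 mouse myoblast line, whose cells join into long multinucleated myotubes at low serum. Before treatment all cultures had 5 days of differentiation in medium with 2% horse serum. For the next 24 h they received DMEM with either 4% horse serum (libraries 1 to 6) or 4% STEM (libraries 7 to 12), both with penicillin and streptomycin. STEM is what human embryonic stem cells release while partially differentiated, freed of the cells. Because it replaced the serum, effects of adding STEM and of removing serum cannot be told apart. The labels do not say that the 6 libraries of a group came from separate experiments, so the p-values measure the spread between these libraries, which may be technical.

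Proteins that are secreted or embedded in membranes enter the ER through the Sec61 channel, fold there with the help of chaperones and disulfide isomerases, and leave in vesicles coated with COPII. Proteins that fail to fold are drawn back to the cytosol and degraded. When unfolded protein builds up, the sensors IRE1 (gene Ern1), ATF6 and PERK (gene Eif2ak3) set off the unfolded protein response, in which IRE1 splices the messenger of the transcription factor XBP1, cleaved ATF6 enters the nucleus, and PERK slows translation and raises ATF4. Procollagen uses a dedicated set of helpers in the ER, among them HSP47 and several prolyl isomerases, and muscle cells in culture secrete collagen. Counts per gene show how much messenger was present, not whether Xbp1 was spliced or ATF6 cleaved.

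In myotubes given STEM, 28 of the 39 genes rose and none fell. Derl3, a degradation factor, had 0 or 1 count in every library and was the only one not tested. The other 38 had a median log2 fold change of 0.25 (1.19-fold), against 0.01 over all 14175 genes tested. Calls rest on an adjusted p of 0.05 or less in edgeR's quasi-likelihood test, adjusted over all genes by the Benjamini-Hochberg method. By this test 18.9% of all genes were higher and 17.4% lower with STEM, beside 73.7% and 0% of the tested genes of this set. No member was lower at an unadjusted p under 0.05 either, and none was lower with DESeq2 or limma-voom. The rises were small, from 1.13-fold to 1.51-fold (log2 0.17 to 0.60, median 0.33). In all, 4 genes reached 1.4-fold (Fkbp7, Fkbp10, Fkbp14 and Syvn1) and none reached 2-fold. The coefficient of variation of a member's level between libraries had a median of 5.41% with STEM and 6.91% with horse serum. Because each library is a bulk culture, a change in the number of cells of one kind and a change in RNA per cell cannot be told apart.

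The libraries held between 13285472 and 24536264 counts. Horse serum library 6 stood apart from the rest, at -53.3 on the second principal component, where the other 11 lay between 0.216 and 11.8. On the first component, which parted the groups, it was at 11.2, nearer to the STEM libraries (15.5 to 28.6) than to the other horse serum libraries (-35.5 to -24.6). For 69.0% of all tested genes its level was outside the range of the other 5 horse serum libraries. The 8 myotube markers were all detected, and their summed level was 10426 CPM (counts brought to a common library total with TMM scaling) in library 6, 15436 to 17626 in the other horse serum libraries and 13949 to 19349.5 with STEM. Single markers moved in different directions with STEM, with Mymk higher (log2 fold change 0.36) and Myog (-0.29) and Myh8 (-1.25) lower, and Myh8 was at 79.8 CPM in library 6. The 3 markers of myoblasts and reserve cells summed to 119 to 153 CPM, and of these Myf5 was lower (-0.42). The part of these shifts in the members' levels was not tested. Summed markers of macrophages stayed between 2.15 and 5.71 CPM, with Ptprc and Adgre1 at 3 counts or fewer, and those of endothelial cells and adipocytes at or below 0.353 CPM. For the members, library 6 lay above every other horse serum library for 21 genes and below them for 7. The counts of called and of non-overlapping genes were therefore also taken without it. The number of members called was again 28 higher and 0 lower, the same 28 genes. The 38 tested members had a median log2 fold change of 0.29 in this fit, against 0.01 over all genes. Of the 14267 genes tested without library 6, 3746 (26.3%) were called higher and 3499 lower.

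**Figure D1:**
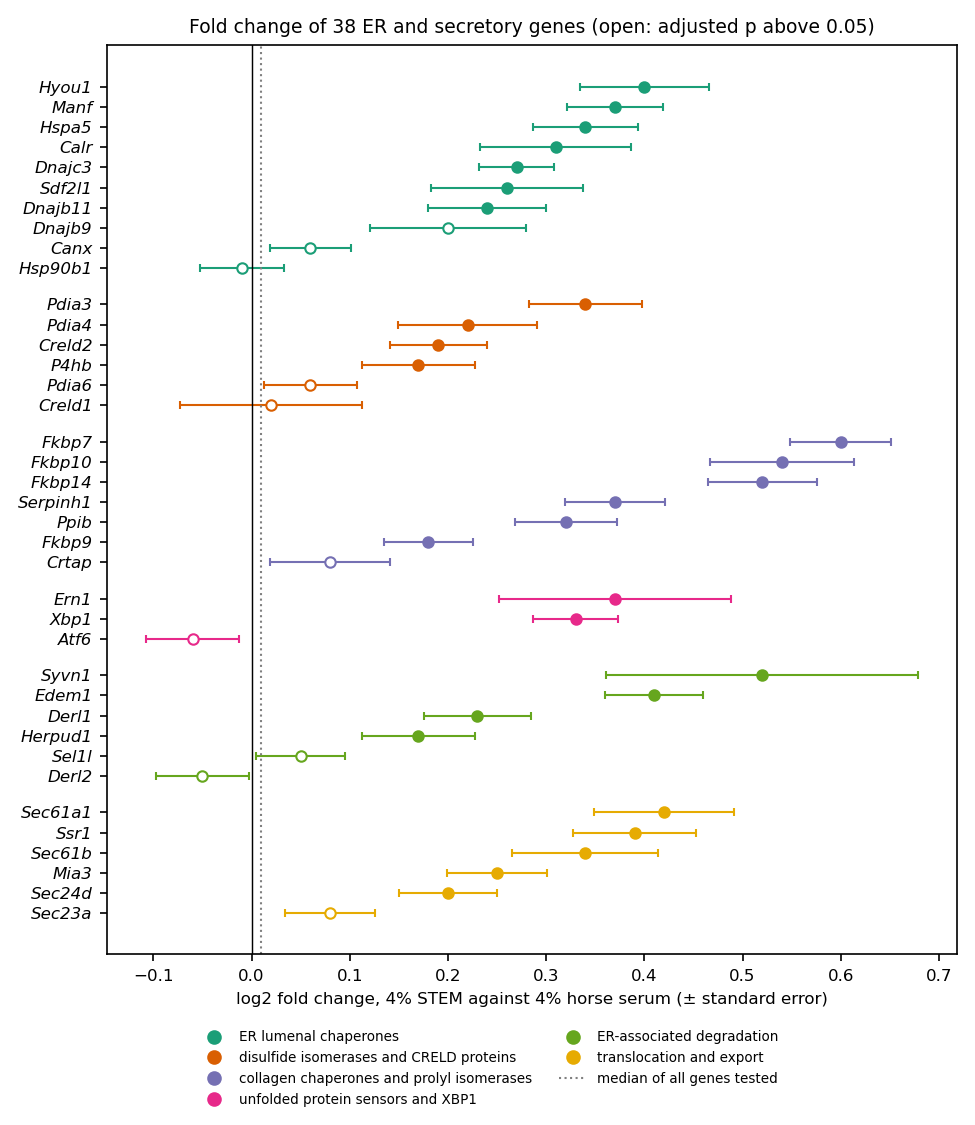
Log2 fold change of the 38 tested genes, 4% STEM against 4% horse serum, as points with bars of 1 standard error, coloured by role. Filled points passed an adjusted p of 0.05 and open points did not, and the dotted line is the median of all genes tested (0.01). The 28 filled points lie between 0.17 and 0.60, and the prolyl isomerases Fkbp7, Fkbp10 and Fkbp14 lie farthest right with Syvn1.

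Genes of the unfolded protein response often carry short sequence elements near their start. The ER stress response element (ERSE) joins CCAAT, bound by NF-Y, to CCACG, bound by ATF6 and XBP1, over a spacer of 9 bases. In RefSeq's promoter table (GRCm38.p6, 250 bases before to 50 bases after each start) 33 of the 39 genes had an entry. An exact ERSE, searched on both strands as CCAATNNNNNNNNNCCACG, was found in 9 of these 33 genes (27.3%) and in 37 of all 27025 genes in the table (0.137%). They are shown because, of the 3 elements searched here, this one was found in the most members. Each is written in the orientation of the element, with its 2 bound ends in capitals. Positions are counted from RefSeq's transcription start, which can differ from the GENCODE gene coordinates given below, as it does for Hspa5. The first base is the one farthest upstream on the gene's strand. For matches on the opposite strand it is the last base of the sequence as written:
Hspa5, at chr2:34772025-34772043, first base -65, same strand as the gene: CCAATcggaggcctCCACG
Hsp90b1, at chr10:86705638-86705656, first base -212, same strand: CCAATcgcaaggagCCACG
Hsp90b1, at chr10:86705533-86705551, first base -107, opposite strand: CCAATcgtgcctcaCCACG
Calr, at chr8:84847075-84847093, first base -162, opposite strand: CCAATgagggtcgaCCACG
Canx, at chr11:50325800-50325818, first base -145, same strand: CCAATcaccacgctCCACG
Dnajc3, at chr14:118937827-118937845, first base -105, same strand: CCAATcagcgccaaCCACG
Pdia6, at chr12:17266491-17266509, first base -98, same strand: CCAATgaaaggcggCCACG
Creld2, at chr15:88819520-88819538, first base -126, opposite strand: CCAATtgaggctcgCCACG
Syvn1, at chr19:6046532-6046550, first base -44, same strand: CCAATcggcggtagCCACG
Derl3, at chr10:75893242-75893260, first base -156, opposite strand: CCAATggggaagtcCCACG

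Of the 8 tested members with an exact ERSE, 5 rose (Hspa5, Calr, Dnajc3, Creld2 and Syvn1). The other 3 did not pass the test (Hsp90b1, Canx and Pdia6). The median log2 fold change of the 8 was 0.23. Of all 38 tested members 28 rose (73.7%), with a median of 0.25. Hsp90b1, the only member in whose window a pair of exact ERSEs was found, had a log2 fold change of -0.01. Inexact copies were not searched for, and members without an entry could not be searched. Among the 10 tested genes outside the set that hold an ERSE, 2 were called higher and 1 lower, with a median of 0.04. The variant ERSE-II, searched as ATTGGNCCACG, was in 2 members (6.06%, against 0.0444% of all genes), and both rose. In Dnajb11 it read ATTGGcCCACG, at chr16:22857852-22857862 from position 8 after the start, and in Herpud1 ATTGGgCCACG, at chr8:94386377-94386387 from position -52. The XBP1 element TGACGTGG was in Sec24d, at chr3:123267470-123267477 from position -26, and in Sec23a, at chr12:59012004-59012011 from position 7 (6.06% of members against 0.714% of all genes). Sec24d rose and Sec23a did not pass the test. Outside the set, 3 of the 7 tested genes with an ERSE-II were called higher and 2 lower. Of the 101 tested genes outside the set with the XBP1 element, 28 were called higher and 11 lower. A match is only a description of the sequence, and these windows say nothing about which factor was bound.

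Of the 10 chaperones of the ER lumen, 7 rose, with a median log2 fold change of 0.26. Hspa5 (chr2:34771970-34777547) encodes BiP, the HSP70 of the ER and the binding partner that holds the stress sensors inactive. Its level was 734 CPM in the lowest horse serum library, 746 at the median and 813 in the highest, and 852, 976 and 1056 CPM with STEM. All 6 STEM libraries were above all 6 horse serum libraries, and the log2 fold change was 0.34 (SE 0.0532, adjusted p = 1.76e-04). Manf (chr9:106838312-106891979), a small secreted partner of BiP, had 89.7, 100.1 and 106 CPM with horse serum and 117, 128 and 135 CPM with STEM. Its groups did not overlap either (log2 fold change 0.37, SE 0.0488, adjusted p = 4.78e-05). Dnajc3, which encodes the co-chaperone p58IPK, went from 97.6, 101 and 103 CPM to 117, 121 and 130 CPM (log2 fold change 0.27, SE 0.0384, adjusted p = 7.74e-05). Every library of one group lay apart from every library of the other for these 3 genes.

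The 4 further rises of this group were in Hyou1, a nucleotide exchange factor of BiP (log2 fold change 0.40, SE 0.0655), Calr, the lectin chaperone calreticulin (0.31, SE 0.0769), Sdf2l1 (0.26, SE 0.0773) and Dnajb11 (0.24, SE 0.06), both partners of BiP. Calr overlapped between the groups only through library 6, which held 1081 CPM, where the other horse serum libraries had at most 869 CPM and the STEM libraries 952 to 1248 CPM. Without that library the log2 fold change of Calr was 0.38. The rise was not shared by the membrane-bound lectin chaperone Canx, calnexin, whose log2 fold change was 0.06 (95% interval -0.03 to 0.15). Hsp90b1 (chr10:86690209-86705509), the HSP90 of the ER, had 629, 646 and 674 CPM with horse serum and 617, 644 and 676 CPM with STEM. The groups lay on top of each other, and the interval of the log2 fold change (-0.10 to 0.08) lay below that of Hspa5 (0.23 to 0.46). Dnajb9, a co-chaperone that recruits BiP to IRE1, had a log2 fold change of 0.20 (interval 0.03 to 0.37, adjusted p = 0.0631) and was the only member outside the calls with an unadjusted p under 0.05. It was called without horse serum library 2 or STEM library 12 (adjusted p 0.0177 and 0.0482).

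**Figure D2:**
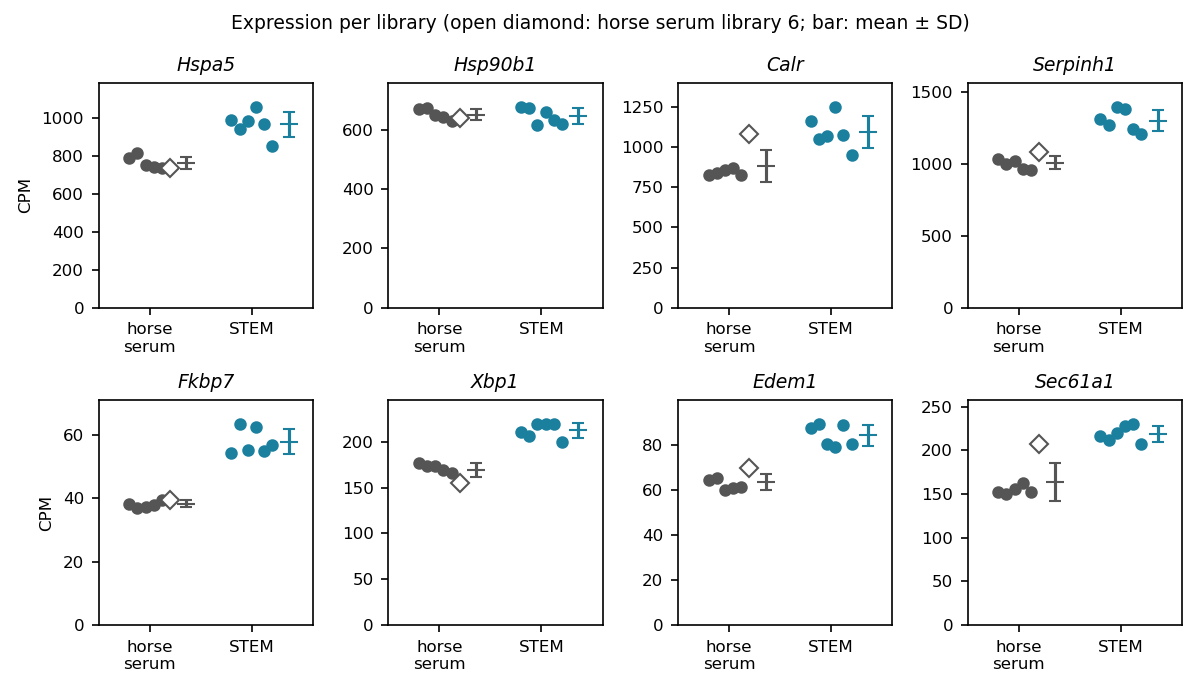
Level in CPM of 8 genes in each of the 12 libraries, on axes that start at 0, with horse serum in grey, STEM in blue, and the mean ± SD of each group beside its points. The open diamond is horse serum library 6. Hspa5, Serpinh1, Fkbp7, Xbp1 and Edem1 show STEM points above all horse serum points, Hsp90b1 shows the same range in both groups, and the diamond reaches the STEM points for Calr and lies just below them for Sec61a1.

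Of the 6 disulfide isomerases and CRELD proteins, 4 rose, with a median log2 fold change of 0.18, the lowest of the 6 groups. Pdia3 (chr2:121413775-121438687) encodes ERp57, the isomerase that works with calreticulin and calnexin on glycoproteins. It had 212, 220.1 and 268 CPM with horse serum and 276, 279 and 305 CPM with STEM, and the groups did not overlap (log2 fold change 0.34, SE 0.0573, adjusted p = 3.69e-04). Creld2, a stress-induced isomerase-like protein, had 44.3, 47.1 and 52.6 CPM against 51.1, 54.6 and 56.0 CPM, and Pdia4, or ERp72, had 144, 152 and 199 CPM against 171, 188 and 197 CPM. Both overlapped between the groups only through library 6, which was the highest horse serum library for each. Their log2 fold changes were 0.19 (SE 0.0493, adjusted p = 0.00751) and 0.22 (SE 0.0707, adjusted p = 0.0227), and without library 6 they were 0.22 and 0.30. P4hb, which is protein disulfide isomerase and also the beta subunit of prolyl 4-hydroxylase, rose by 0.17 (SE 0.0578, adjusted p = 0.0315), a call that was lost without horse serum library 4 or 5 or STEM library 7, 8 or 9 (adjusted p 0.0529 to 0.0873). The call of Pdia4 was lost without horse serum library 1, 4 or 5 or STEM library 7 (adjusted p 0.0518 to 0.0593). Pdia6 (0.06, interval -0.04 to 0.17) and Creld1 (0.02, interval -0.18 to 0.22) did not pass the test.

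The 7 collagen chaperones and prolyl isomerases had the highest median of the 6 groups, 0.37, and 6 of them rose. Fkbp7 (chr2:76663044-76673116), a prolyl isomerase of the ER, had 37.0, 38.1 and 39.6 CPM with horse serum and 54.4, 56.2 and 63.4 CPM with STEM. This was the largest rise of any member (log2 fold change 0.60, SE 0.0514, adjusted p = 8.58e-07), and the gap between the groups was wider than the range inside either, with library 6, at 39.5 CPM, among its own. Fkbp14 (chr6:54577604-54597308), which acts on procollagen III and other collagens, had 38.6, 39.8 and 46.0 CPM against 55.5, 59.9 and 62.1 CPM. Here too the gap was wider than the range inside either group (log2 fold change 0.52, SE 0.0557, adjusted p = 7.09e-06). Fkbp10 (chr11:100415697-100424824) encodes FKBP65, which is needed for crosslinking of type I collagen and whose loss causes brittle bones. It had 118, 129.8 and 171 CPM against 185, 196 and 209 CPM, with library 6 highest in its group but still below every STEM library (log2 fold change 0.54, SE 0.0734, adjusted p = 5.37e-05). Without library 6 the log2 fold change of Fkbp10 was 0.63.

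Serpinh1 encodes HSP47, the chaperone that binds only folded procollagen, and per kilobase of exon it had the highest level of all members, 412 ± 19.0 CPM per kb with horse serum and 532 ± 30.7 CPM per kb with STEM (mean ± SD over 6 libraries each). The rise of Serpinh1 was 0.37 on the log2 scale (SE 0.0509, adjusted p = 6.81e-05), with no overlap. Ppib, cyclophilin B, rose by 0.32 (SE 0.0521) and Fkbp9 by 0.18 (SE 0.0452), both with no overlap, although the highest horse serum library and the lowest STEM library of Fkbp9 were only 312 and 313 CPM. A share of 25% of Ppib's exon bases also lies in Snx22 on the opposite strand. The strand setting of the counting is not given in the sources used here, so reads of these 2 genes may have been mixed or left out. The same holds for smaller shares of the exons of Manf (8.85%), Fkbp10 (6.58%), Fkbp14 (5.01%), Sec61a1 (8.16%), Sec23a (8.9%) and Hsp90b1 (10.3%). In Hsp90b1, 5.38% of exon bases also lie in genes on the same strand, which no strand setting separates. Cyclophilin B, CRTAP and P3H1 form a complex that modifies a proline of fibrillar collagen. Crtap did not pass the test (log2 fold change 0.08, interval -0.05 to 0.21), while P3h1, which is not one of the 39 genes, rose by 0.61 (SE 0.05, adjusted p = 5.56e-07).

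Of the 3 genes of unfolded protein sensing, Xbp1 and Ern1 rose and Atf6 did not pass the test. Xbp1 (chr11:5520659-5525893) had 155, 171 and 177 CPM with horse serum and 200.2, 215 and 219 CPM with STEM. The groups did not overlap, and library 6 was the lowest of all (log2 fold change 0.33, SE 0.0433, adjusted p = 4.13e-05). Ern1 (chr11:106394650-106487852), the gene of IRE1, had 18.0, 19.3 and 29.0 CPM against 23.1, 26.7 and 31.5 CPM, with the 29.0 CPM in library 6 as the only overlap. Its log2 fold change was 0.37 (SE 0.118, adjusted p = 0.0231), it was 0.49 without library 6 (adjusted p = 5.48e-05), and the call was lost without horse serum library 1, 2, 3 or 4 or STEM library 11 or 12 (adjusted p 0.0506 to 0.054). Atf6 (chr1:170704674-170867771) had 219.8, 238 and 269 CPM against 223, 229.7 and 239 CPM, so the STEM libraries lay inside the horse serum range (log2 fold change -0.06, interval -0.16 to 0.05).

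Of the 6 tested genes of ER-associated degradation, 4 rose. Edem1 (chr6:108828641-108859356), a lectin that marks misfolded glycoproteins for removal, had 60.2, 62.9 and 69.6 CPM with horse serum and 79.2, 84.1 and 89.2 CPM with STEM. It had no overlap and the lowest p of its group (log2 fold change 0.41, SE 0.0499, adjusted p = 2.51e-05). Derl1, part of the channel through which substrates leave the ER, went from 228, 239 and 254 CPM to 260, 273 and 319 CPM, also with no overlap (log2 fold change 0.23, SE 0.0542, adjusted p = 0.00379). Syvn1 (chr19:6046576-6053712) encodes HRD1, the ubiquitin ligase of this route, and had the lowest level per kilobase of exon of the tested members, 2.12 ± 0.38 CPM per kb with horse serum and 3.06 ± 0.763 CPM per kb with STEM. Its libraries had 8.42, 10.2 and 13.2 CPM against 11.2, 13.8 and 20.7 CPM. Its STEM libraries were the most scattered of any member (coefficient of variation 24.9%) and 3 of them were not above the highest horse serum library, which was library 6 (log2 fold change 0.52, SE 0.159, adjusted p = 0.0192). Herpud1, a partner of HRD1, rose by 0.17 (SE 0.0575, adjusted p = 0.0296), a call that was lost without horse serum library 2, 3 or 5 or STEM library 7, 9 or 10 (adjusted p 0.0508 to 0.0723). Sel1l, the partner that HRD1 needs to be stable, did not pass the test (0.05, interval -0.04 to 0.15), nor did Derl2 (-0.05, interval -0.15 to 0.05). The 2 counts of Derl3 in all 12 libraries together lay under a floor of 3 counts, so no fold is given for it.

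Of the 6 genes of translocation and export, 5 rose, with a median of 0.29. Ssr1 (chr13:37966605-37994217), a subunit of the translocon-associated protein complex, had 182, 191 and 241 CPM with horse serum and 244, 259 and 274 CPM with STEM. Sec61a1 (chr6:88503579-88518905), the pore of the Sec61 channel, had 150.3, 154 and 207 CPM against 207, 218 and 229.8 CPM. In both genes library 6 was close to the lowest STEM library without reaching it, and the log2 fold changes of 0.39 (SE 0.0627, adjusted p = 2.32e-04) and 0.42 (SE 0.0709, adjusted p = 3.34e-04) became 0.46 and 0.50 without it. Mia3 (chr1:183326725-183369553) encodes TANGO1, which loads bulky procollagen into COPII vesicles, and had 135, 142 and 165 CPM against 163, 171 and 185 CPM. It overlapped through library 6 alone (log2 fold change 0.25, SE 0.0513, adjusted p = 0.00148). Sec61b, another channel subunit, rose by 0.34 (SE 0.0743), and Sec24d, a cargo-binding protein of the COPII coat, by 0.20 (SE 0.0497). Sec61b shares 467 bases at 98.7% identity with Gm10320, 82.8% of its transcript, so its count is uncertain. Processed pseudogenes match shorter stretches of Derl1 (95.2% identity), Dnajb9 (93.1%) and Calr (92.5%). Sec23a, the inner COPII coat, was at 212 to 218 CPM in all 6 STEM libraries, the least scattered member there (coefficient of variation 1.1%), and within the 181 to 219 CPM of horse serum (log2 fold change 0.08, interval -0.02 to 0.17).

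**Figure D3:**
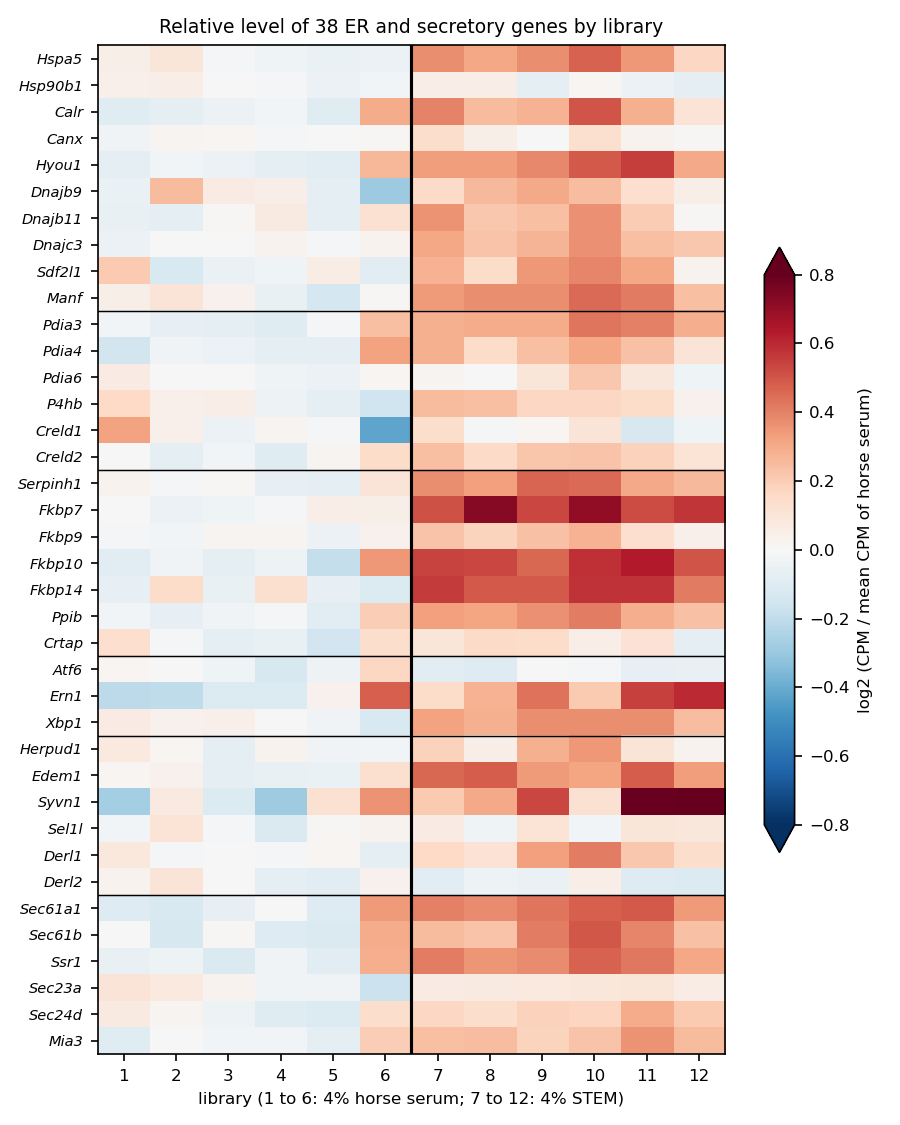
Level of the 38 tested genes in each library, as log2 of CPM over the mean CPM of the horse serum libraries, with red for higher and blue for lower and colours ending at 0.8. Rows are grouped by role and the thick line parts horse serum (1 to 6) from STEM (7 to 12). Column 6 is red for many of the rows that are red in columns 7 to 12, including Calr, Hyou1, Pdia4, Fkbp10 and Sec61a1, and blue for Dnajb9, Creld1 and Xbp1.

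Every STEM library was above every horse serum library for 16 members, beside 8.68% of all genes tested, and the other 12 called members overlapped. In 7 of these 12 (Calr, Pdia4, Creld2, Ern1, Sec61b, Sec24d and Mia3) library 6 alone made the overlap, and without it 23 members had no overlap, beside 16.8% of all genes tested. Library 6 reached the level of at least 1 STEM library in 9 of the 28 called members. It was not shifted alike for all of them, since it was the lowest horse serum library for Xbp1, P4hb, Derl1 and Fkbp14. Summed myotube markers were lowest in library 6 too, and their part in these levels was not tested.

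The STEM libraries also differed among themselves. Library 10 was the highest of the 6 for 17 members, among them Hspa5, Calr, Pdia3 and Manf, and library 12 was the lowest for 23, among them the same Hspa5, Calr and Manf. Ern1 and Syvn1 went the other way and were highest in library 12, and Syvn1 was lowest in library 10. Without library 6 the horse serum libraries were closer together than the STEM libraries, with a median coefficient of variation of 3.71%.

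The ratio of 2 genes inside a library does not depend on how libraries are scaled to each other. For 4 pairs of partners it is given as a description with no test, since the pairs were chosen after their values had been seen to differ. The count of Hspa5 over that of Hsp90b1 was 1.168 ± 0.0204 with horse serum and 1.495 ± 0.0979 with STEM (mean ± SD, n = 6 each). It was higher in 6 of 6 STEM libraries than in any horse serum library, and library 6, at 1.15, lay with its group. Xbp1 over Atf6 went from 0.707 ± 0.0678 to 0.9192 ± 0.0281 and P3h1 over Crtap from 1.621 ± 0.0746 to 2.337 ± 0.22, again with 6 of 6 STEM libraries above all horse serum libraries. Calr over Canx went from 1.398 ± 0.151 to 1.662 ± 0.101, but library 6 had a ratio of 1.70 and only 1 of 6 STEM libraries was above it.

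Beyond the 39 genes, 136 others of the same pathway were listed by role, and 133 were tested. Of these 63 were higher and 4 lower with STEM (47.4% and 3.01%), at a median of 0.15 on the log2 scale, and 76 were higher and 8 lower without library 6. The counts differed by role. Of 26 further folding enzymes 13 were higher and 2 lower, of 15 genes of N-glycan transfer and trimming 9 and 0, of 26 genes of the COPII coat and its cargo receptors 14 and 1, and of 16 further degradation genes 6 and 0. Closer to the background of all genes were the 22 genes of signal recognition, the translocon and signal peptidase, with 5 higher and 1 lower. So were the 11 genes of the COPI coat, which returns vesicles to the ER, with 3 and 0. Sec61a1, Sec61b and Ssr1 of the translocon each rose but are counted among the members, so the share of that role depends on this division.

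**Figure D4:**
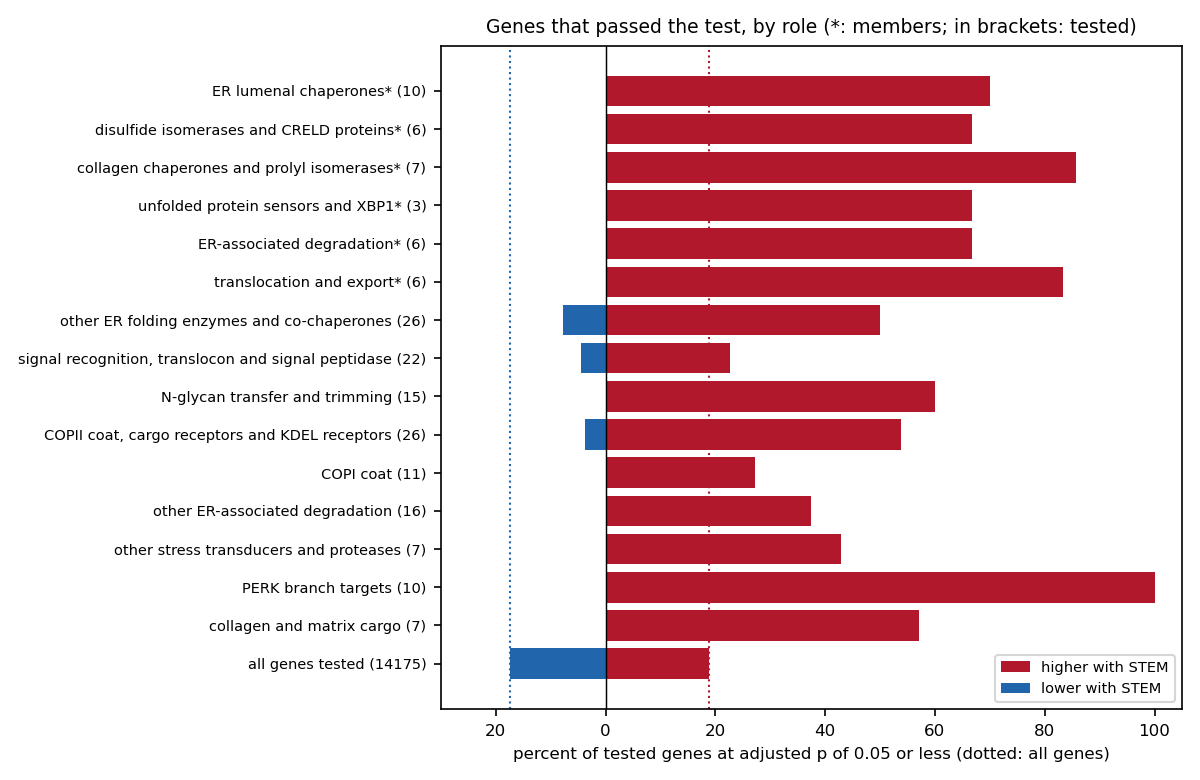
Share of the tested genes of each role that were higher (red, to the right) or lower (blue, to the left) with STEM at an adjusted p of 0.05 or less, with the number tested in brackets, stars on the 6 groups of members and dotted lines at the shares of all genes (18.9% and 17.4%). The member groups lie between 66.7% and 85.7% higher with none lower, the 10 PERK branch targets are at 100%, and signal recognition and the COPI coat lie at 22.7% and 27.3%.

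Among folding enzymes, P3h1 and Erp29 (log2 fold change 0.52, SE 0.0567) rose and Tmx3, a membrane-bound oxidoreductase, fell by 0.32 (SE 0.0395), from 179.9 ± 5.2 to 144 ± 5.65 CPM. Ero1a, the oxidase that keeps disulfide isomerases active, did not pass the test at -0.50 (interval -1.24 to 0.25). It had 50.7 CPM in library 6 against 203 to 322 CPM in the other horse serum libraries and 123 to 202 CPM with STEM, and without library 6 it was lower at -0.70 (adjusted p = 0.00528). Among genes of export, Mia2, a partner of TANGO1, rose by 0.46 (SE 0.0604), Tmed9 by 0.37 (SE 0.0489) and Surf4, a cargo receptor, by 0.34 (SE 0.049). Of the KDEL receptors, which bring escaped chaperones back, Kdelr2 (0.29, SE 0.0412) and Kdelr3 (0.38, SE 0.0576) rose and Kdelr1 did not pass the test (0.02, interval -0.08 to 0.13). The lowest p-values of the remaining lists belonged to Srprb, Ssr2 and Srpr of protein targeting (0.34, 0.47 and 0.29), Ostc, Rpn1 and Ddost of the oligosaccharyltransferase (0.30, 0.23 and 0.27), Copg1, Copz2 and Cope of the COPI coat (0.34, 0.24 and 0.14), and Selenos, Vcp and Erlec1 of degradation (0.47, 0.25 and 0.36), all higher with STEM.

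The third sensor and the targets of its branch were higher with STEM. Eif2ak3, the gene of PERK, had a log2 fold change of 0.34 (SE 0.0655, adjusted p = 0.00102), and all 10 listed targets of the branch were called higher, with a median of 0.44. ATF4 targets are also raised by amino acid shortage and other stresses, so the list is not specific to PERK. Atf4 itself went from 410 ± 21.0 to 526 ± 57.0 CPM (0.36, SE 0.0671), Nupr1 rose by 0.48 (SE 0.0471) and Sesn2 by 0.66 (SE 0.0817). Atf3, a stress-induced transcription factor, had 2.96, 4.14 and 5.28 CPM with horse serum and 8.15, 12.3 and 15.9 CPM with STEM (1.49, SE 0.163, adjusted p = 8.94e-06). The groups did not overlap, and library 6 lay with its own. Ddit3, the gene of CHOP, was at the edge of the threshold (0.34, SE 0.118, adjusted p = 0.0367) and lost the call without library 6 (0.29, adjusted p = 0.0739).

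Of the membrane-bound transcription factors related to ATF6, Creb3l1, which drives type I collagen in bone, had 10.1, 12.1 and 20.8 CPM with horse serum and 20.9, 30.0 and 42.8 CPM with STEM (log2 fold change 1.22, SE 0.21, adjusted p = 6.87e-04). Its highest horse serum value, in library 6, was just below the lowest STEM value. Atf6b rose by 0.37 (SE 0.075), and Creb3l2 did not pass the test (0.32, interval -0.00 to 0.64). Of 7 matrix proteins that pass through this pathway as cargo, 4 were higher. Sparc went from 2367 ± 84.0 to 3322 ± 130.1 CPM (0.49, SE 0.0458), Col5a1 rose by 0.71 (SE 0.0988) and Col1a1 by 0.71 (SE 0.202, adjusted p = 0.0161) with a wide range of 339 to 796 CPM among STEM libraries. Col3a1 (0.09, interval -0.04 to 0.22) and Col1a2 (0.15, interval -0.01 to 0.31) did not pass the test, and Col1a2 did without library 6 (0.23, adjusted p = 5.22e-04).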

How the data were processed

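The authors deposited raw read counts per Ensembl gene for 12 libraries of stranded total RNA depleted of ribosomal RNA, on genome build GRCm38. The submitters' processing notes name STAR 2.7.3a, featureCounts 1.6.3 and DESeq2 1.26.0. The annotation release and the strand setting of the counting are not given in the sources used here. Libraries were assigned to groups by their titles.

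Counts were tested with edgeR 4.0.16 in R 4.3.3 (TMM normalization, filterByExpr, robust glmQLFit, glmQLFTest), which kept 14175 genes, with Benjamini-Hochberg adjustment over all of them and a call at an adjusted p of 0.05 or less. Intervals of the log2 fold change are 95% intervals from the same model and cover the spread between libraries. Levels are CPM scaled by TMM. Levels per kilobase are divided by the merged exons of all annotated transcripts of a gene, so rankings between genes also depend on the annotation. No fold is given for a gene with 3 counts or fewer over each group, a floor that covers counting error only. Depth was between 13285472 and 24536264 counts per library. Pairs of libraries of a group differed beyond sampling noise (chi-square per degree of freedom 3.54 to 76.6), and each library counted as 1 replicate. Pairs with horse serum library 6 had 62.8 to 76.6, and all other pairs 3.54 to 20.9. Such differences do not show that the libraries came from separate experiments. DESeq2 1.42.0, limma-voom (limma 3.58.1), 3 other scalings, 2 other filters, an adjusted p of 0.01 and leaving out each library were the alternatives. The procedure was tested on simulated data with 200 changed genes, all changed by 2-fold or more. No called member reached 2-fold, so that test does not cover rises of their size.

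Symbols and coordinates were looked up in GENCODE (GRCm38), where 55227 of the 55487 genes were found, and the symbols Hm13 and Ddit3 were matched by an older name and by position. Promoter windows came from RefSeq (GRCm38.p6). Copies were transcripts sharing at least 200 bases at 90% identity or more. Members and lists were chosen with earlier results of these data known, so no test was made over a list. Library values are given for the 3 called members with the lowest p in each role and for Hspa5, Xbp1, Ern1 and Atf6, and other pathway genes were named by a similar rule (at most 3 per list, and 14 genes whatever their values). Library values of Hsp90b1, Calr, Sec23a, Fkbp9 and Atf3 and the gene pairs were chosen after their values were seen.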

Additional observations from a re-analysis of the deposited data

Results flagged for a closer look

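In 76 groups of 6 libraries, 1 per tested gene and medium, the highest or lowest library was compared with the rest by Dixon's criterion, which chance meets in about 1 in 20 groups. It was met in 11 groups, in each by a high value of horse serum library 6. Among chaperones and isomerases these were Calr at 1081 CPM, Hyou1 at 140.2 CPM, Pdia3 at 268 CPM and Pdia4 at 199 CPM. Of the collagen helpers they were Fkbp10 at 171 CPM and Ppib at 352 CPM, and of the sensors Ern1 at 29.0 CPM. In translocation and export they were Sec61a1 at 207 CPM, Sec61b at 64.7 CPM, Ssr1 at 241 CPM and Mia3 at 165 CPM. All 11 genes were called higher with STEM, both with library 6 and without it. Across all tested genes, 69.0% had their highest or lowest horse serum value in library 6. How many genes outside the set meet the criterion was not counted. Whether the 11 exceed the rate among all genes was therefore not tested.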

How the results depend on the processing

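No paired analysis was made because the labels give no pairing of libraries between the groups. With each other normalization, filter or tool and with any 1 library left out, 25 to 29 members were called higher and 0 lower, and the median log2 fold change of all genes moved by at most 0.0202 under another scaling. Of the 28 called members 24 kept the call in every such fit. Ern1, Herpud1, P4hb and Pdia4 lost it in at least 1, Herpud1 and P4hb also with upper quartile scaling, and Dnajb9 gained it with total counts only. At an adjusted p of 0.01, 1676 of all genes were higher and 1590 lower, 22 members were higher and 2 other pathway genes were lower. Values near 0 changed sign. Hsp90b1 was at 0.01 with total counts only and between -0.03 and 0.00 without 1 library, and Creld1 was at -0.00 with upper quartile scaling and between -0.05 and 0.09 without 1 library. Without 1 library, between 4 and 8 other pathway genes were lower, the 8 without horse serum library 6. At this depth Derl3 had too few counts to be tested. No fit at a lower depth was made. The counts of genes by promoter element were not taken under these alternatives.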
